A study of Heterocephalus glaber with 6 samples.

Results

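The 50 assembled loci described here were the most abundant in acetone-treated naked mole-rat epidermis. They were chosen by their measured level, among 16973 loci whose ID has the format of a transcript assembly, of 33281 loci in all, as the 50 with the highest mean CPM over the 4 acetone libraries. CPM is the count of a locus divided by the total of its library, times 1000000. The members are called by their rank, from 1 to 50, in that mean. Their IDs are not paired with gene symbols in the files, and 0 of the 33281 IDs matched the RefSeq gene table used here, so no member could be given a gene name, a position or a function. IDs are printed for 4 members only. The 50 were also the 50 most abundant of all loci: the first Ensembl-format locus came at rank 827 of all loci, with a mean of 188 CPM in the acetone libraries.

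Naked mole-rats are long-lived subterranean rodents. RNA was sequenced from the epidermis of wild-type animals aged 6 to 7 months, parted from the dermis of the back skin with dispase. In the DMBA group the skin received 1 dose of 7,12-dimethylbenz[a]anthracene (DMBA, 1 mg/ml in acetone, 100 µl) and was harvested on day 10. In the DMBA/TPA group the same dose was followed by the phorbol ester TPA at 0.1 mg/ml 2 times per week, with harvest on day 46. Each treatment had acetone-treated controls of its own. The sources used here do not give the day on which controls were harvested, nor strain, sex or the number of animals. The design had 2 libraries in each of the 4 groups, and the 2 libraries of a control group belong to 1 deposited sample. Nothing says that libraries came from separate animals. The p-values therefore set differences between groups only against the spread of these libraries, and that spread may be technical.

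DMBA is a polycyclic aromatic hydrocarbon that is metabolised in skin to DNA-damaging products and serves as an initiator in the classical mouse skin tumour model. TPA activates protein kinase C and acts there as a promoter, which drives keratinocyte proliferation and inflammation. In mammalian epidermis the most abundant messenger RNAs usually encode keratins and proteins of the cornified envelope, and libraries made by depletion of ribosomal RNA also hold mitochondrial and other abundant non-coding transcripts. Which of these kinds a member belongs to cannot be told from the files, and markers of epidermis, dermis or blood could not be looked up for the same reason. In tissue RNA, fewer cells of a type and less RNA per cell cannot be told apart.

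Library totals were 30080934 and 35238753 counts for DMBA, 22852358 and 27486387 for its controls, 34537133 and 38124702 for DMBA/TPA, and 24337164 and 24153238 for its controls. Every member was counted at least 11068 times in every library, so counting error was at most 0.95% of a value. Abundance within the 50 fell steeply. Rank 1 averaged 48058 CPM in the acetone libraries, rank 10 averaged 6899 CPM and rank 50 averaged 1263 CPM. Just outside the choice, rank 51 averaged 1230 CPM.

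The 50 loci held more of the counts in treated than in acetone epidermis. Their share was 39.4% and 36% in the DMBA libraries, against 31.6% and 33.2% in their controls. For DMBA/TPA it was 43.8% and 48.0%, against 27.9% and 28.2% in the DMBA/TPA controls. Group means were 37.7% ± 2.4 in DMBA, 32.4% ± 1.13 in its controls, 45.9% ± 2.97 in DMBA/TPA and 28.1% ± 0.163 in its controls (SD, n = 2 each). For both treatments the libraries lay above those of their own controls without overlap. No test is given, since the acetone levels chose the members.

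The larger share came from the top of the list alone. Rank 1 by itself held 15% and 17.8% in the DMBA/TPA libraries, against 3.99% and 4.12% in their controls. Ranks 2 to 10 held 20.7% and 22.7% in the DMBA/TPA libraries, against 13.2% and 13.7% in their controls. Ranks 11 to 50 went the other way, with 8.03% and 7.46% in the DMBA/TPA libraries, against 10.7% and 10.4% in their controls. The same held for DMBA, where ranks 11 to 50 held 9.65% and 10.2% against 10.6% and 11.4% in the DMBA controls. With rank 1 left out of both the share and the total, the other 49 still held 35.3% ± 2.01 in DMBA/TPA, against 25.0% ± 0.0990 in its controls, and 32.0% ± 2.87 in DMBA, against 28.4% ± 1.43 in its controls (SD, n = 2 each). In that form the DMBA groups came close together, with 29.9% in the lower DMBA library against 29.4% in the higher DMBA control. The assembled loci ranked 51 to 100 held 3.98% and 3.58% in the DMBA/TPA libraries, against 5.82% and 5.43% in their controls.

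**Figure D1:**
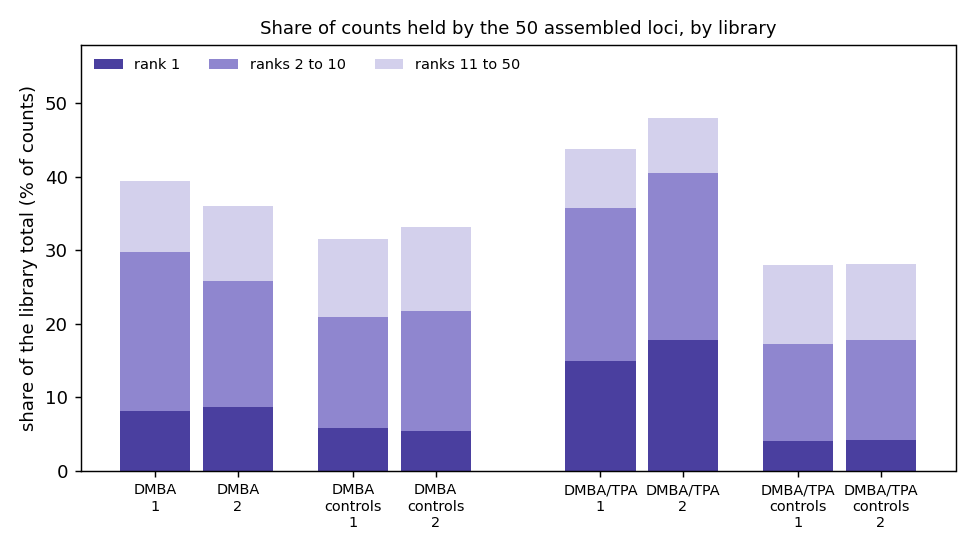
Share of each library's counts (vertical axis, %) held by the 50 loci, 1 bar per library, split into rank 1, ranks 2 to 10 and ranks 11 to 50. The DMBA/TPA bars reach 43.8% and 48.0% against 27.9% and 28.2% in their controls, and the rank 1 segment is 15% and 17.8% of the counts there.

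Because CPM divides by a total that contains the members, a library in which rank 1 takes more of the counts shows less of every other locus. Fold changes below therefore come from edgeR with TMM scaling, which sets the bulk of loci equal between libraries, with factors from 0.786 in the second DMBA/TPA library to 1.19 in the second DMBA/TPA control. Under TMM the median log2 fold change over all loci was -0.04 in DMBA/TPA, against -0.52 when libraries were scaled by total counts alone. CPM values in the text are unscaled, so a member can have lower CPM in treated libraries and a log2 fold change near 0. A call means an edgeR quasi-likelihood p, adjusted over all 18422 tested loci, below 0.05. All 50 members passed the filter on low counts.

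After DMBA/TPA, 9 of the 50 loci rose and 9 fell. Of all tested loci 26.5% were called, 14.5% higher and 12.0% lower. The acetone libraries that chose the members are also the base of this contrast, and choosing on high acetone levels by itself favours lower values in treated libraries, so the counts are given as a description. Their median log2 fold change was -0.17, against -0.04 for all loci. Among ranks 1 to 10 the split was 5 higher and 2 lower with a median of 1.11, and among ranks 11 to 50 it was 4 higher and 7 lower with a median of -0.23. The assembled loci ranked 51 to 100 had 9 higher and 17 lower, with a median of -0.46. These are counts only, and no difference between the rank classes was tested. With total counts alone 7 members were called higher and 24 lower, where 5.62% and 28.0% of all loci were called in those directions, 33.6% in all, and the members' median was -0.63. Without any test, both DMBA/TPA libraries lay above both of their controls in CPM at 9 members and below at 33, against 17.0% and 56.4% of all tested loci. With TMM-scaled CPM these were 19 and 24 members, against 34.9% and 36.7%. No member was called in opposite directions by any pair of TMM, upper-quartile and total-count scaling and DESeq2. In all 4 of these settings ranks 1, 3, 4, 9, 10, 13 and 43 were called higher and ranks 6, 8, 20, 23, 33, 36, 37, 39 and 40 lower.

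The counts of calls moved with single libraries. The higher calls were 5 without the second DMBA/TPA library, where 5.25% of all loci were called higher, and 5 without the second DMBA/TPA control, where 6.16% were. Lower calls numbered 3 when the first DMBA/TPA library was dropped, 2 when the second was, and 3 when the first DMBA/TPA control was. Of all loci 3.62%, 2.68% and 2.53% were called lower in these fits. Dropping the first DMBA library gave 15 and dropping the second gave 14, where 15.2% and 13.9% of all loci were called lower. The calls over all loci thus moved along with those of the members. The members' counts also moved with the libraries that chose the members. The 50 assembled loci ranked on the DMBA controls alone, which have no part in this contrast, shared 40 loci with the members and had 14 higher and 5 lower. Those ranked on the DMBA/TPA controls alone shared 43 and had 8 higher and 15 lower. These controls are the base of this contrast, so choosing on them by itself favours lower calls.

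The most abundant locus also showed one of the largest rises. Rank 1 (MSTRG.822) stood at 149988 and 178099 CPM in the DMBA/TPA libraries, against 39932 and 41202 CPM in the DMBA/TPA controls. The ratio of mean CPM was 4.04. Under TMM the rise was 5.67-fold, a log2 fold change of 2.50 (standard error 0.258, edgeR adjusted p = 0.000781). After DMBA alone it had 81833 and 86467 CPM, against 57644 and 53456 CPM in the DMBA controls. The groups did not overlap, but the DMBA effect of 0.78 in log2 units was not called (standard error 0.246, edgeR adjusted p = 0.151). It was the most abundant assembled locus in each of the 8 libraries.

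Rank 3 (MSTRG.798) moved much like it. It had 69155 and 83237 CPM in the DMBA/TPA libraries, against 22525 and 22603 CPM in the DMBA/TPA controls, a log2 fold change of 2.24 (standard error 0.280, edgeR adjusted p = 0.00127). After DMBA alone it had 45817 and 33875 CPM, against 30767 and 30794 CPM in the DMBA controls, where its log2 fold change was 0.56 (edgeR adjusted p = 0.312). Ranks 1, 3, 9 and 40 were the members whose DMBA/TPA call held under each of the 16 alternative settings tried for single loci.

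Ranks 4, 9 and 10 rose after DMBA/TPA too. Rank 4 had 51953 and 54228 CPM in the DMBA/TPA libraries, against 23049 and 22162 CPM in their controls, with a log2 fold change of 1.71 (standard error 0.337, edgeR adjusted p = 0.00689). Dropping the second DMBA/TPA library or either of the DMBA/TPA controls ended that call (highest edgeR adjusted p = 0.0985 over its alternatives, when the control columns were summed). Its DMBA libraries disagreed, with 57535 CPM in the first and 29877 CPM in the second, against 29359 and 31996 CPM in the DMBA controls.

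For rank 9 the DMBA/TPA libraries had 18143 and 21961 CPM, against 5978 and 5974 CPM in their controls, a log2 fold change of 2.23 (standard error 0.30, edgeR adjusted p = 0.00161). Its DMBA libraries stood at 19278 and 12843 CPM, against 7400 and 8998 CPM in the DMBA controls, and its log2 fold change of 1.15 there was not called (edgeR adjusted p = 0.0977). For rank 10 the DMBA/TPA libraries had 11946 and 15105 CPM, against 4993 and 5571 CPM in their controls, a log2 fold change of 1.85 (standard error 0.284, edgeR adjusted p = 0.00251). In both loci every treated library lay above every acetone library, and rank 10 had 16569 and 11656 CPM in the DMBA libraries, against 7923 and 9107 CPM in the DMBA controls.

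Ranks 2, 5 and 7 were not called in either treatment in the reported edgeR fit. In DMBA/TPA, DESeq2 called rank 2 higher. With only the compared groups in the fit, rank 2 was called higher and rank 7 lower. Rank 2 had 24220 and 25369 CPM in the DMBA/TPA libraries, against 22221 and 26565 CPM in their controls, and 34967 and 33010 CPM in the DMBA libraries, against 28025 and 36358 CPM in the DMBA controls. Both pairs of groups overlapped in CPM. In TMM-scaled CPM rank 2 had 28173 and 32285 in the DMBA/TPA libraries, against 20069 and 22345 in their controls, without overlap. Its log2 fold change in DMBA/TPA was 0.51 under TMM and 0.02 with total counts alone. Rank 5 had 15828 and 13742 CPM in the DMBA/TPA libraries, against 14556 and 17791 CPM in their controls, and 17134 and 21515 CPM in the DMBA libraries, against 15817 and 19526 CPM in the DMBA controls. These overlapped as well in CPM. In TMM-scaled CPM rank 5 had 18411 and 17488 in the DMBA/TPA libraries, against 13146 and 14965 in their controls, without overlap. The log2 fold changes of rank 5 were 0.35 in DMBA/TPA and 0.30 in DMBA. Rank 7 had 6046 and 5680 CPM in the DMBA/TPA libraries, against 11542 and 11534 CPM in their controls. The CPM of rank 7 were well apart there, yet its log2 fold change was -0.50 under TMM (edgeR adjusted p = 0.21) and -0.98 with total counts alone, where it was called (edgeR adjusted p = 0.0214). With DMBA alone rank 7 had 6083 CPM in the first and 11203 CPM in the second, against 10344 and 11118 CPM in the DMBA controls.

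Ranks 6 and 8 fell after DMBA/TPA, and their IDs carry neighbouring numbers. Rank 6 had 6453 and 5068 CPM in the DMBA/TPA libraries, against 15283 and 14141 CPM in their controls, with a log2 fold change of -0.88 (standard error 0.239, edgeR adjusted p = 0.0245). The call was lost when any 1 of the 4 libraries compared was dropped and with the control columns summed. It was also lost with a term in the fit for the sample number of treated libraries (edgeR adjusted p = 0.0667). Its DMBA libraries had 13056 and 11930 CPM, against 16903 and 11852 CPM in the DMBA controls, which overlap. Rank 8 (MSTRG.7741) had 3617 and 2500 CPM in the DMBA/TPA libraries, against 11930 and 10168 CPM in their controls, with a log2 fold change of -1.39 (standard error 0.237, edgeR adjusted p = 0.00385). That call ended when the second DMBA/TPA library was dropped, with the control columns summed, and with both control sets pooled (edgeR adjusted p = 0.106). Its DMBA libraries had 5136 and 5739 CPM, against 5538 and 4483 CPM in the DMBA controls, so its high values were those of the DMBA/TPA controls alone.

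**Figure D2:**
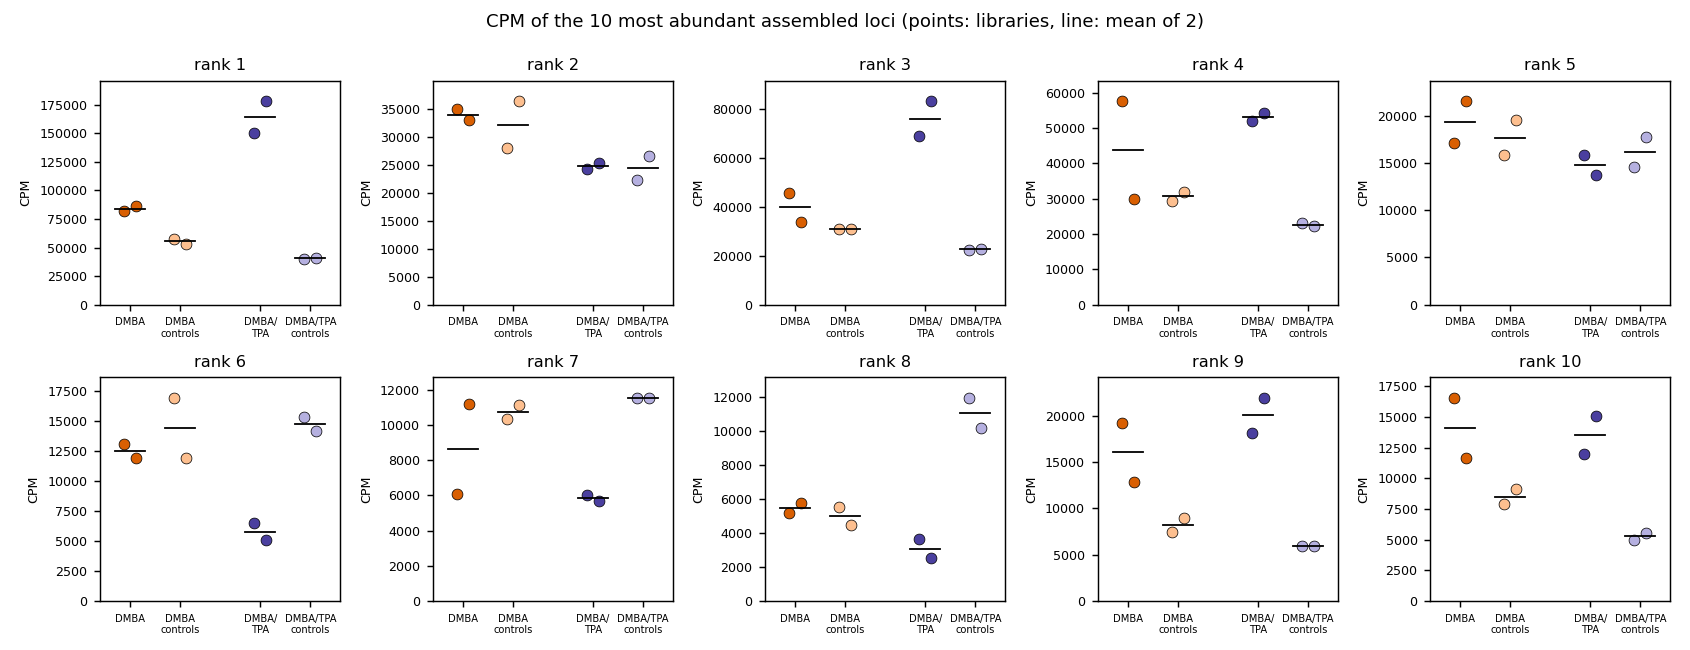
CPM (vertical axes, linear, from 0) of ranks 1 to 10 in each group, with 1 point per library and a line at the mean of 2. Ranks 1, 3, 4, 9 and 10 are higher and ranks 6, 7 and 8 lower in both DMBA/TPA libraries than in both of their controls. Ranks 2 and 5 overlap, and rank 7 was not called under TMM.

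Below rank 10 the largest called rise was that of rank 43, which had 5999 and 4762 CPM in the DMBA/TPA libraries, against 787 and 1167 CPM in their controls. Its log2 fold change of 2.95 (standard error 0.440, edgeR adjusted p = 0.00222) was the highest of the 50. The DMBA/TPA controls, the base of this contrast, averaged 977 CPM here, below the 1263 CPM of rank 50. The DMBA controls averaged 1883 CPM, and it was these that brought rank 43 among the 50. Measured against the acetone libraries of either set together, the rise shrank to 2.36 in log2 units. It was still called (edgeR adjusted p = 0.00707). Rank 43 moved up to ranks 11 and 12 among assembled loci in the DMBA/TPA libraries, against ranks 130 and 67 in their controls. In the DMBA libraries it had 4262 and 1816 CPM, against 2458 and 1309 CPM in the DMBA controls, which overlap. The other rises below rank 10 were smaller: ranks 13, 21 and 25 had log2 fold changes of 1.09, 0.74 and 1.01. Rank 21 and rank 25 were no longer called with total counts alone (edgeR adjusted p = 0.346 and 0.0837).

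The largest falls were at ranks 20, 40, 39, 36 and 8, and in all 5 the DMBA/TPA controls stood apart from the DMBA controls. Ranks 20, 36, 39 and 40 averaged 1242, 1049, 763 and 916 CPM in the DMBA controls, below the 1263 CPM of rank 50. It was thus the DMBA/TPA controls, the base of this contrast, that brought them among the 50. For these members the falls are no independent evidence. Rank 20 had 773 and 792 CPM in the DMBA/TPA libraries, against 7210 and 6311 CPM in their controls, with a log2 fold change of -2.63 (standard error 0.575, edgeR adjusted p = 0.0115). In the DMBA libraries it had 4560 and 8843 CPM, against 525 and 1960 CPM in the DMBA controls. Its DMBA/TPA values thus lay within the range of the DMBA controls, and its DMBA values lay around those of the DMBA/TPA controls. Which animals or litters the libraries came from is not given, so the part of single animals or litters in the values of rank 20 was not tested. The 2 DMBA controls differed 3.73-fold at rank 20, the widest gap of any member in that group. Its call was lost without the first DMBA library, either DMBA/TPA library or the first DMBA/TPA control. It was also lost without the low-count filter (edgeR adjusted p = 0.0702) and with both control sets pooled (edgeR adjusted p = 0.181).

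Rank 40 (MSTRG.313) had 408 and 290 CPM in the DMBA/TPA libraries, against 2589 and 1426 CPM in their controls, with a log2 fold change of -2.07 (standard error 0.347, edgeR adjusted p = 0.00359). Its DMBA libraries had 1340 and 1482 CPM, against 730 and 1103 CPM in the DMBA controls. The DMBA/TPA libraries were the lowest of all 8 here, and with both control sets pooled the log2 fold change was -1.63 and still called (edgeR adjusted p = 0.0312).

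At rank 39 the DMBA/TPA libraries had 531 and 499 CPM, against 2741 and 1621 CPM in their controls, and the DMBA libraries 806 and 1093 CPM, against 795 and 731 CPM in the DMBA controls. Its log2 fold change in DMBA/TPA was -1.62 (standard error 0.280, edgeR adjusted p = 0.00406). At rank 36 the DMBA/TPA libraries had 656 and 497 CPM, against 2708 and 1928 CPM in their controls, and the DMBA libraries 478 and 1168 CPM, against 1074 and 1024 CPM in the DMBA controls. Its log2 fold change in DMBA/TPA was -1.54 (standard error 0.363, edgeR adjusted p = 0.014). That call was lost without either DMBA/TPA library or the first DMBA/TPA control, and with the control columns summed. In both loci the DMBA/TPA controls were the highest libraries, and with both control sets pooled neither was called (edgeR adjusted p = 0.157 for rank 39 and 0.113 for rank 36). The remaining lower calls, at ranks 23, 33 and 37, had log2 fold changes of -0.74, -0.68 and -0.61.

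**Figure D3:**
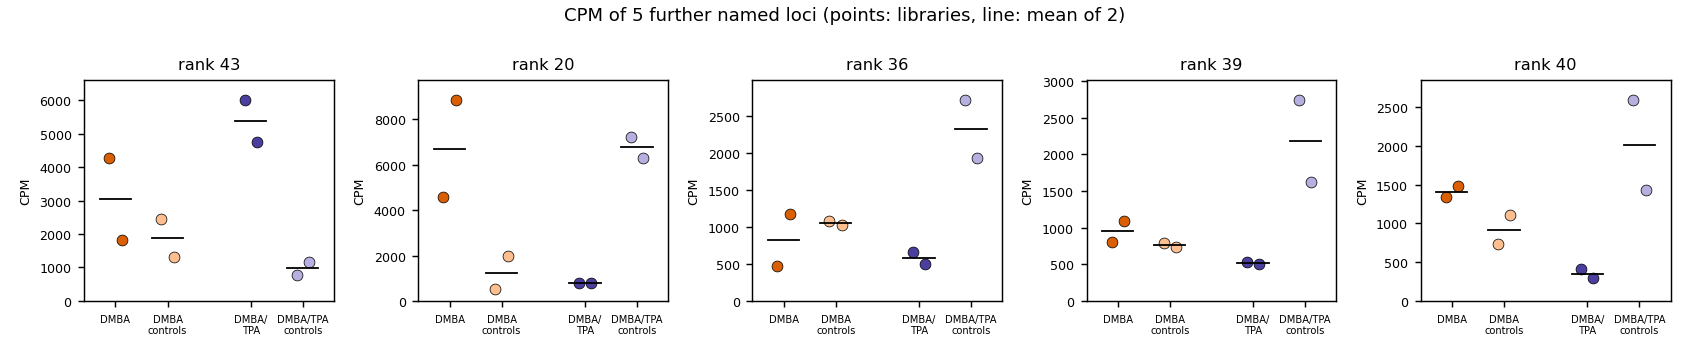
CPM (vertical axes, linear, from 0) of ranks 43, 20, 36, 39 and 40 in each group, with 1 point per library and a line at the mean of 2. Rank 43 is highest in DMBA/TPA, while at ranks 36, 39 and 40 the DMBA/TPA controls average 2.19 to 2.86 times the DMBA controls.

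The acetone sets themselves differed in a few members. Mean CPM in the DMBA/TPA controls was over 2-fold that in the DMBA controls at ranks 8, 20, 36, 39, 40 and 47, and over 2-fold lower at rank 29. It was within 1.5-fold in 36 of the 50. Of the 9 members called lower in DMBA/TPA, 5 are among those 6, and with both control sets pooled 10 members were called higher and 5 lower, where 11% and 8.1% of all loci were. The part of day of harvest in this was not tested.

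**Figure D4:**
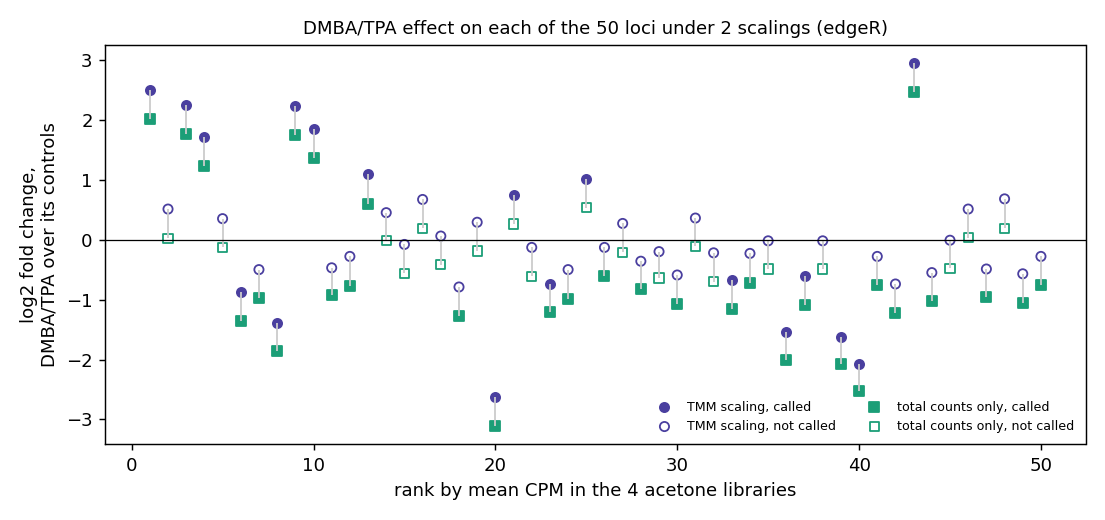
Log2 fold change of DMBA/TPA over its controls (vertical axis) for each member by rank (horizontal axis), under TMM scaling (circles) and total counts alone (squares); filled symbols are called. TMM gives 9 higher and 9 lower calls and total counts 7 and 24, with each member lower under total counts.

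On day 10 after DMBA alone no member was called by edgeR, where 1.11% of all loci were, 0.836% higher and 0.271% lower. At an unadjusted p below 0.05 there were 14 of 50, where 17.9% of all loci were. DESeq2 called 7 members, ranks 1, 9, 10, 20 and 41 higher and ranks 31 and 37 lower, where it called 4.95% of all loci, 3.17% higher and 1.77% lower. The log2 fold changes ran from -0.69 to 2.57 with a median of 0.00, as over all loci. The 2.57 is that of rank 20 (standard error 0.573, edgeR adjusted p = 0.0809). In CPM, 12 members had both DMBA libraries above both DMBA controls and 18 had both below, against 14.1% and 32.7% of all tested loci in those directions. With TMM-scaled CPM these were 14 and 8 members, against 22.7% and 21.8%.

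The DMBA libraries resembled each other less than those of any other group. Their CPM differed by more than 1.5-fold at 18 of the 50 members and by more than 2-fold at 9. The corresponding numbers over 1.5-fold were 5 in the DMBA controls, 2 in DMBA/TPA and 4 in the DMBA/TPA controls. The widest gap was 6.79-fold at rank 27, which had 566 CPM in the first DMBA library and 3840 CPM in the second, against 2852 and 2061 CPM in the DMBA controls. The DMBA calls differed with the library used. Without the second DMBA library 9 members were called, ranks 4, 9, 10 and 43 higher and ranks 18, 23, 27, 44 and 49 lower, where 5.29% of all loci were called, 2.11% higher and 3.18% lower. Without the first there were 2, ranks 22 and 35, both lower, where 1.77% of all loci were called, 1.20% higher and 0.57% lower. Without the second DMBA control rank 20 alone was called, where 0.74% of all loci were. The fits without the first and without the second DMBA library had no called member in common.

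Neither treated group was used to choose the members, so DMBA/TPA and DMBA can be compared free of that choice, although treatment and day of harvest differ together. Relative to DMBA, rank 1 was higher and ranks 20 and 40 were lower in DMBA/TPA, 3 calls of 50, where 2.35% of all loci were called, 1.13% higher and 1.22% lower. The log2 difference of rank 1 was 1.20 (standard error 0.248, edgeR adjusted p = 0.0417), that of rank 20 -2.85 (standard error 0.580, edgeR adjusted p = 0.0429) and that of rank 40 -1.79 (standard error 0.343, edgeR adjusted p = 0.0337). No member was called when the first or second DMBA/TPA library was dropped, where 0.145% and 0.0258% of all loci were. Rank 40 alone was called when the first or second DMBA/TPA control was dropped, where 0.934% and 0.965% of all loci were. Dropping the first DMBA library gave 8 calls, rank 1 among them but neither rank 20 nor rank 40, where 6.23% of all loci were called. DESeq2 called 10 members and 6.92% of all loci. The highest edgeR adjusted p over the alternatives was 0.337 for rank 1, 0.254 for rank 20 and 0.278 for rank 40. In CPM both DMBA/TPA libraries lay above both DMBA libraries at 5 members and below at 26, against 13.8% and 37.6% of all tested loci. With TMM-scaled CPM these were 8 and 16 members, against 25.3% and 23.9%.

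By sign of the log2 fold change under TMM, 15 members were positive in both treatments and 22 negative in both, against 30.8% and 32.1% of all tested loci. A further 9 were positive in DMBA and negative in DMBA/TPA and 4 the reverse, against 19.4% and 17.4% of all tested loci. Both acetone sets chose the members, which favours negative effects in both treatments, so nothing is read from these numbers. Of the 9 members that rose after DMBA/TPA, each had a positive log2 fold change in DMBA under TMM. At ranks 13 and 21 it was only 0.03 and 0.17, and with total counts alone it was -0.15 and -0.01. Of the 9 that fell, 4 had a positive log2 fold change in DMBA under TMM, at ranks 8, 20, 39 and 40. The same was not counted over all called loci. Many of these effects are small, and under total counts 6 members that were positive in DMBA/TPA turned negative.

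The difference between the effects, DMBA/TPA minus DMBA, was called at 6 members, where 5.12% of all loci were called, 2.07% higher and 3.05% lower. Ranks 1 and 3 rose more in DMBA/TPA, with differences of 1.72 and 1.68 in log2 units (standard errors 0.348 and 0.381, edgeR adjusted p = 0.0278 and 0.0385). Their mean CPM in the DMBA/TPA controls was 0.73 and 0.733 times that in the DMBA controls, which enters these differences. Compared directly with DMBA, rank 1 was called at 1.20, while rank 3 at 1.17 was not (edgeR adjusted p = 0.0417 and 0.0592). Ranks 8, 20, 39 and 40 had the lower effect in DMBA/TPA, with differences of -1.69, -5.20, -2.11 and -2.86 (edgeR adjusted p = 0.0238, 0.0136, 0.0208 and 0.0156). Each of these 4 was over 2-fold higher in CPM in the DMBA/TPA controls than in those of DMBA. Ranks 20, 39 and 40 averaged 6761, 2181 and 2007 CPM in the DMBA/TPA controls and 1242, 763 and 916 CPM in the DMBA controls, below the 1263 CPM of rank 50, so it was the DMBA/TPA controls that brought them among the 50. The test of the difference uses those same values, and for these members it is no independent evidence. No member was called when the first or second DMBA/TPA library or the first DMBA/TPA control was dropped, where 0.625%, 0.32% and 0.516% of all loci were. Dropping the first DMBA control gave 1 call, dropping the second gave 3, and dropping the first DMBA library gave 18, where 1.76%, 2.73% and 12.9% of all loci were called.

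**Figure D5:**
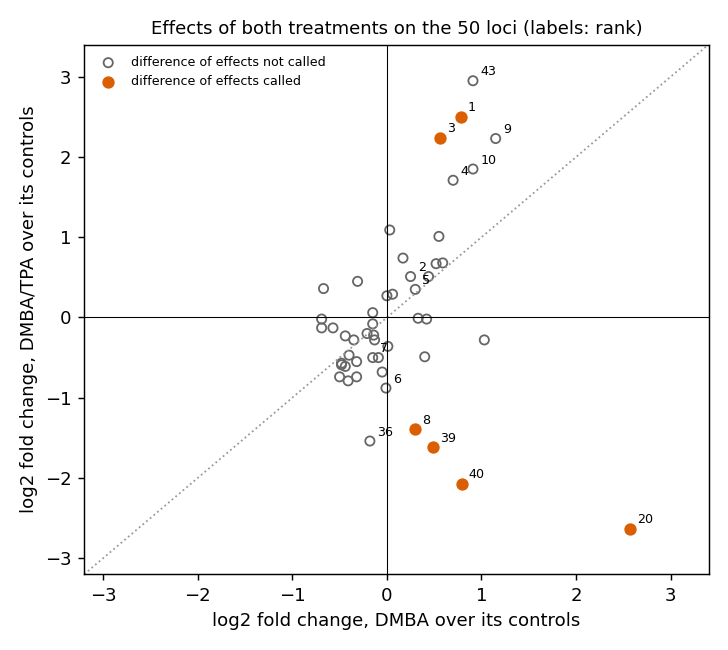
Log2 fold change of DMBA/TPA over its controls (vertical axis) against that of DMBA over its controls (horizontal axis), 1 point per member, labelled by rank for the named loci, with the dotted line at equality. Filled points are the 6 members whose difference of effects was called, of which ranks 1 and 3 lie above the line and ranks 8, 20, 39 and 40 below it.

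In each library 8 or 9 of ranks 1 to 10 were still among that library's 10 most abundant assembled loci. The members among a library's 50 most abundant numbered 37 and 40 for DMBA, 39 and 41 for its controls, 36 and 33 for DMBA/TPA, and 39 and 44 for its controls. In DMBA/TPA 14 other loci were among the 50 most abundant in both libraries, against 4 in the DMBA/TPA controls. For DMBA the numbers were 6, against 5 in the DMBA controls. Acetone levels chose the members, which by itself favours more members and fewer other loci in the acetone libraries, so nothing is read from these counts. The most abundant of the 14 had acetone rank 152 and stood at 3208 and 3222 CPM in the DMBA/TPA libraries, against 424 and 270 CPM in their controls. It was also the most abundant such locus in DMBA, at 1996 and 2700 CPM, against 1403 and 419 CPM in the DMBA controls. At the other end 7 members lay below rank 100 in both DMBA/TPA libraries, the lowest being rank 40 at ranks 220 and 285.

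Members often had IDs with close numbers. Another member lay within 10 numbers for 22 of the 50, against 7 of the 50 loci ranked 51 to 100 among themselves, and 8 members had a direct neighbour. The sources used here do not say how the numbers were given, so no position is read from them. Neighbours did not all move together. Ranks 6 and 8 both fell in DMBA/TPA, while ranks 25 and 44, 7 numbers apart, had log2 fold changes of 1.01 and -0.55. Ranks 15 and 17, picked out after their values were seen, have adjacent IDs and almost equal levels, with a CPM ratio between 1.00 and 1.18 over the 8 libraries. Over all 1225 pairs of members the highest such ratio was a median of 3.47 times the lowest, and for ranks 15 and 17 it was 1.18 times. Pairs with distant IDs were as close: it was also 1.18 times for ranks 44 and 49, whose IDs lie 2138 numbers apart, and 1.21 times for ranks 7 and 24, 5898 numbers apart. Whether ranks 15 and 17 are separate genes, near-identical copies or pieces of 1 transcript was not tested, and their counts are uncertain for that reason.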

How the data were processed

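The authors deposited raw counts per gene ID, as whole numbers. Per the submitters' processing notes, TopHat2, Bowtie2, cutadapt and FastQC were used, in roles and versions not stated. Genome build, annotation, counter and strand setting are likewise not given in the sources used here, so overlapping, antisense or near-identical loci may share reads. RNA had an integrity number above 7, dispase was used at 5 mg/ml, and libraries were depleted of ribosomal RNA, per the labels' protocols. The 8 count columns belong to 6 samples. Each column was taken as 1 library, and the column headed by a number alone was assigned through its file. The statistic of a chi-square test between libraries of a group was 26.2 to 137.4 per degree of freedom, so none agreed within sampling noise.

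Loci were tested with edgeR 4.0.16 in R 4.3.3, using filterByExpr (minimum count 10, minimum total 15; 18422 of 33281 loci kept), TMM scaling, and a robust quasi-likelihood fit of the 4 groups together, which left 4 residual degrees of freedom. Benjamini-Hochberg adjustment covered all tested loci. Each standard error is the size of the log2 fold change over the root of its F statistic. DESeq2 1.42.0 was an alternative. The procedure was also run on counts simulated with the fitted spread of each locus, the same in all groups. That run cannot show how it behaves where groups differ in spread, as they do here. Named members were ranks 1 to 10, members called in DMBA, and the 5 largest called changes in each direction in DMBA/TPA against its controls and against DMBA. The members and this rule were chosen with earlier results of these data known. Gene and marker lists could not be used without symbols.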

Additional observations from a re-analysis of the deposited data

Results flagged for a closer look

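Members whose effect differed between the treatments are listed here because the test of the difference itself passed the threshold. On the log2 scale, DMBA/TPA effect minus DMBA effect, it was 1.72 at rank 1, 1.68 at rank 3, -1.69 at rank 8, -5.20 at rank 20, -2.11 at rank 39 and -2.86 at rank 40 (edgeR, adjusted p from 0.0136 to 0.0385). The call was made in 7, 6, 8, 9, 8 and 9 of the 14 alternatives for ranks 1, 3, 8, 20, 39 and 40. The sign was kept in each of them. High DMBA/TPA controls brought ranks 20, 39 and 40 among the 50, and the test uses those same libraries, so it is no independent evidence for these members. Groups of 2 libraries are too small for a check on outlying samples.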

How the results depend on the processing

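No log2 fold change of a called member changed sign under any alternative. For DMBA/TPA against its controls, where 9 members were called higher and 9 lower, the numbers were 14 and 16 with only these groups in the fit (42.0% of all loci called) and 3 and 3 with the control columns summed (4.58%), against 26.5% of all loci in the reported fit. With total counts alone 24 were lower, and with both control sets pooled 5. With members ranked on the DMBA controls 14 were higher and 5 lower, on the DMBA/TPA controls 15 were lower, and on all 8 libraries 18 were higher. Ranking on the DMBA/TPA controls by itself favours lower calls. Ranking on all 8 libraries also chooses on the DMBA/TPA libraries, which favours higher calls more than ranking on acetone does. The DMBA/TPA controls enter the difference of effects as well. Leaving out 1 library gave 5 to 12 higher and 2 to 15 lower. For DMBA against its controls, with 0 called, DESeq2 called 7 (4.95% of all loci). Testing without the low-count filter called 2 (1.98%), and pooling both control sets called 1 (1.51%). For DMBA/TPA against DMBA, with 3 called, there were 10 with DESeq2 (6.92% of all loci) and 5 with total counts alone (4.15%). There were 5 with members from the DMBA/TPA controls and 1 with the replicate block (2.01%). For the difference of effects, with 6 called, there were 13 with DESeq2 (9.14% of all loci) and 11 with members from the DMBA/TPA controls. Fewer were called with the control columns summed. The cause of these moves was not tested, other than that summing and leaving out reduce the number of libraries. Where a library is left out, the lone one of its group is assumed to vary like the others.

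The replicate block changed the counts for DMBA/TPA against its controls to 9 higher and 7 lower, where 24.3% of all loci were called. It called 0 members in DMBA, where 0.244% of all loci were. For the difference it called 6, with rank 43 in and rank 3 out, where 4.68% of all loci were. Same-numbered treated samples share only a number, and the correlation of their deviations from the group means was -0.00011 across loci.

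The share of 28.1% in the DMBA/TPA controls was 26.6%, 28.4% or 27.3% with members from the DMBA controls, the DMBA/TPA controls or all 8 libraries. Without the most abundant member it was 32.0% for DMBA, 28.4% for its controls, 35.3% for DMBA/TPA and 25.0% for its controls. With only assembled loci in the total the DMBA controls had 33.7% and the DMBA/TPA controls 29.2%. With 1 library left out, the share of its group is that of the other library, given above, so this is no separate check.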
